A study of Mus musculus with 16 samples.

Results

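The Myc, Max and Mxd network genes are 10 mouse genes (Myc, Mycn, Mycl, Max, Mxd1, Mxi1, Mxd3, Mxd4, Mnt and Mga), taken by name out of the 26180 genes with a curated RefSeq transcript on a chromosome of GRCm38. For each gene, the peaks of 6 ChIP-seq lists were collected at its start sites, within 2500 bp on each side, and over its body, from the first to the last annotated base. The cells were R1 mouse ESCs that carry MycER, a Myc fusion protein which 4-hydroxytamoxifen (OHT) switches on. Both cultures share this transgene. The study describes more than 1 MycER clone, and the labels do not name the clone profiled here. LIF-ESCs were kept with 100 units per ml of LIF, the cytokine that sustains mouse ESCs, and Myc-ESCs with 50 nM OHT in its place. H3K4me3, H3K27me3 and Suz12 were each profiled in both cultures. Each antibody was used on 2 samples per culture and 4 further libraries are inputs (16 in all), but every pair of samples is represented by 1 peak list. The cultures therefore have no replicate spread to be compared with, no test was run, and every difference given here is a description of 2 lists.

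The network works through shared E-boxes. Myc, Mycn and Mycl bind DNA only as partners of Max and mostly activate, whereas the Mxd proteins, Mnt and Mga compete for Max and recruit repressors, Mga as part of a variant Polycomb complex. H3K4me3 marks the start of active and poised genes, Suz12 is a core subunit of the Polycomb complex PRC2, and H3K27me3 is the mark that PRC2 deposits. In ESCs, Myc and Mycn are the family members best known for sustaining self-renewal.

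H3K4me3 gave 32469 peaks in LIF-ESCs against 30345 in Myc-ESCs, with a median length of 2316 and 2623 bp. Suz12 gave 11305 and 13907 peaks and H3K27me3 gave 3120 and 16717, whose median length lay between 157 and 269 bp. Each peak carries a score from MACS, 10 times the negative log10 of its p-value, that starts at 50. Of the H3K4me3 peaks, 13.1% in LIF-ESCs against 11.2% in Myc-ESCs scored 3100 or more. Many of them share the value 3100 exactly, called the score ceiling here although some peaks exceed it, so these cannot be ranked. All 10 ESC markers examined, Pou5f1, Sox2 and Nanog among them, had H3K4me3 at the start in both cultures. Suz12 lay at 1 of them in LIF-ESCs against 2 in Myc-ESCs, and H3K27me3 at 0 against 1. Of 10 markers of other lineages, 9 had H3K4me3 in LIF-ESCs against 10 in Myc-ESCs, so this mark did not separate them from the ESC markers. Suz12 lay at 8 and 10 of them, and H3K27me3 at 5 and 8. The shares of all genes were 62.2% and 63.3% for H3K4me3, 12.1% and 14.6% for Suz12, and 3.82% and 10.7% for H3K27me3.

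H3K4me3 was called at the start of 10 of 10 members in LIF-ESCs and 10 of 10 in Myc-ESCs. Over all genes the share was 62.2% in LIF-ESCs against 63.3% in Myc-ESCs. No member had the mark in a single culture. Of all genes, 1.21% had it in LIF-ESCs alone and 2.35% in Myc-ESCs alone. All 10 members also had an H3K4me3 peak over the gene body in each culture, where the shares of all genes were 64.2% and 65.3%. The body includes the start sites, so peaks at the start can count there too. No other curated gene starts within the windows of a member or within its H3K4me3 peaks.

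Polycomb was found at few members. Suz12 peaks were present at the start of 3 members in LIF-ESCs (Myc, Mycl and Mxi1), against 12.1% of all genes, and of 2 members in Myc-ESCs (Myc and Mxi1), against 14.6%. H3K27me3 was called at 1 member in LIF-ESCs (Mycl, against 3.82% of all genes) and at 0 members in Myc-ESCs, where the share of all genes was 10.7%. The gene bodies include the start sites and held the same Polycomb peaks. Their member counts were therefore the same, 3 and 2 for Suz12 and 1 and 0 for H3K27me3. The shares of all genes over the body were 12.0% and 14.6% for Suz12 and 3.79% and 10.7% for H3K27me3. Mycl was the 1 member with Suz12 in LIF-ESCs only (1.28% of all genes) and with H3K27me3 in LIF-ESCs only (0.733% of all genes). No member had either in Myc-ESCs only, as 3.82% of all genes did for Suz12 and 7.65% for H3K27me3. Counts of 1 to 3 among 10 genes are too small to set the members apart from that background. The other 7 members (Mycn, Max, Mxd1, Mxd3, Mxd4, Mnt and Mga) had neither Polycomb peak at the start or over the body in either culture. Their nearest Suz12 peak lay 91.2 kb or more from the start site in LIF-ESCs and 99.4 kb or more in Myc-ESCs.

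The most detailed Polycomb map is that of Mycl, and the stretch of the gene under its peaks is shown because a Suz12 peak and the H3K27me3 peak of LIF-ESCs meet in it. A second Suz12 peak lies further downstream and is not shown. It covers chr4:122996834-122997124 in GRCm38 on the plus strand, 291 bases from coding exon 2 into intron 2, as in the RefSeq genome sequence. The first bases lie in a Suz12 peak and the last in an H3K27me3 peak, and the 14 bases in capitals lie in both.
Mycl, exon 2 to intron 2: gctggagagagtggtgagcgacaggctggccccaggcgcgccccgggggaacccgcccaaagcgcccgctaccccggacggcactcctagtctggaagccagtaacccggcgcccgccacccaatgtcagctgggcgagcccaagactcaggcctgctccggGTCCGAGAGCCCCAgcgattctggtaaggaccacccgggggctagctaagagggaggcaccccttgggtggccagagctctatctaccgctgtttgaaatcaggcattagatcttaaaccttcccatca

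For 9 of the 10 members, 11 promoters were found in the RefSeq promoter table of GRCm38.p6, each running from 250 bases before to 50 bases after a start. Myc had no entry. The E-box CACGTG, the sequence that Myc-Max dimers prefer, occurred once in the promoters of Max, Mxd4 and Mnt and in 7.15% of all 32851 promoters. The site at Max spans the start itself, from -3 to +3, that at Mnt lies at -123 to -118 and that at Mxd4 at -219 to -214. A match says only that these letters are in the window. The promoters of the 3 genes are printed up to the start site, that of Max with 3 further bases to complete the match, and CACGTG is in capitals.
Max, chr12:76962246-76962498, minus strand: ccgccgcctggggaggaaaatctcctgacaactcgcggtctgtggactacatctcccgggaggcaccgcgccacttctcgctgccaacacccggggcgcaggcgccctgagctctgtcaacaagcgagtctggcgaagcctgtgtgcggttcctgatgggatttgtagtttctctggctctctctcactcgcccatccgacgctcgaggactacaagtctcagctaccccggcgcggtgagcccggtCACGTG
Mxd4, chr5:34187711-34187960, minus strand: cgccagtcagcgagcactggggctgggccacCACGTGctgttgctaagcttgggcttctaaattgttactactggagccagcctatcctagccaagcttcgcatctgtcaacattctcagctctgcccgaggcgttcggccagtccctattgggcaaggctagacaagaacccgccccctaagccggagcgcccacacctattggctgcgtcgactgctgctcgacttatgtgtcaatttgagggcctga
Mnt, chr11:74830674-74830923, plus strand: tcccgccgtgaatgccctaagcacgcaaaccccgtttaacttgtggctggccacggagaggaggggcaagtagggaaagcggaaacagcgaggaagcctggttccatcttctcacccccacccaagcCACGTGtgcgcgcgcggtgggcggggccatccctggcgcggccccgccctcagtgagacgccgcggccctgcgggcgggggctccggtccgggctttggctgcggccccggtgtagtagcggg

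Of the motifs read by the effectors of Wnt and LIF signalling, CTTTGAA, a Tcf motif, was found once in Mycn, on the reverse strand at -14 to -8, and in 5.14% of all promoters. The other Tcf spellings occurred in no member promoter. Of all promoters, 3.73% held CTTTGAT, 3.63% held CTTTGTA and 5.85% held CTTTGTT. TTCNNNGAA, the Stat motif, was in no member promoter and in 8.30% of all. All motifs were searched on both strands, and no 2 matches in a member overlapped. The Mycn promoter is printed because it holds this match, in capitals, next to the start of a gene that is known for its role in ESCs.
Mycn, chr12:12941837-12942086, minus strand: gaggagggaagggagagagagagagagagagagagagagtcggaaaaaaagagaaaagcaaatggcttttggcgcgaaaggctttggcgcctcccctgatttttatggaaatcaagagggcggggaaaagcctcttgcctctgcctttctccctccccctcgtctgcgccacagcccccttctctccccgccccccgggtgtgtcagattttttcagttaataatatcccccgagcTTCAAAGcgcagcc

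The member promoters held more CpG sites than the median promoter. Their GC content ran from 56.0% at the first start of Mxi1 to 76.7% at Mxd1, against a median of 52.7% over all promoters. The number of CpG sites in 300 bases ran from 14 at Mycn to 49 at the fourth start of Mxi1, against a median of 7.00. All 11 member promoters thus exceeded both medians, whether or not Suz12 was called nearby, but some only moderately. The share of all promoters with lower GC ran from 59.7% at the first start of Mxi1 to 97.3% at Mxd1. The share with fewer CpG sites ran from 63.7% at Mycn to 99.0% at the fourth start of Mxi1.

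Myc, the founding member of the family (gene ID 17869, chr15:61985341-61990361, plus strand), lay wholly under H3K4me3 in both cultures. A single peak of 7987 bp ran from -2476 to +5510 bp of the start in LIF-ESCs, and one of 8128 bp from -2706 to +5421 in Myc-ESCs. Both reached the score ceiling, and 96.1% of their combined extent was shared. Of the 16275 genes with H3K4me3 at the start in LIF-ESCs, 92.6% had a shorter summed length there. Of the 16572 such genes in Myc-ESCs, 96.0% did. The mark of the Myc gene was therefore broad in these lists, and its extent hardly differed between them. How far reads of the MycER transgene add to it over exons 2 and 3 was not tested.

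Suz12 at Myc differed more. LIF-ESCs had 1 peak of 194 bp at +2174 to +2367, in exon 2, with a score of 56.8, and 8.42% of the LIF-ESC Suz12 peaks scored lower. Myc-ESCs had 3 peaks. A peak of 551 bp with a score of 304 lay at +318 to +868, across the untranslated exon 1 and intron 1. A peak of 878 bp with a score of 484 lay at +873 to +1750, within intron 1, and 82.5% of the Myc-ESC Suz12 peaks scored lower. The third, of 214 bp with a score of 64.2, lay at +2463 to +2676 in coding exon 2. The LIF-ESC peak overlapped none of these, so the cultures shared no Suz12 base at Myc.

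Suz12 thus covered 194 bp of the Myc start window in LIF-ESCs against 1467 bp in Myc-ESCs, a difference of 1273 bp. Over the 2822 genes with Suz12 at the start in both cultures, the median coverage was 1124 and 1810 bp and the median difference 502 bp, and 405 of them (14.4%) gained as much as Myc or more. The gain at Myc was thus larger than for most of these genes but not rare. When peaks scoring under 100 were left out, Myc had Suz12 in Myc-ESCs only. No H3K27me3 accompanied it. The nearest H3K27me3 peak lay 3601 kb from the start in LIF-ESCs and 960 kb in Myc-ESCs. Such a state was common, since 1285 of the 3694 genes (34.8%) with Suz12 and H3K4me3 in Myc-ESCs had no H3K27me3 at the start in either culture. The GC content of the Myc Suz12 peaks was 56.4 to 57.5%, against medians of 53.1% and 52.3% over the LIF-ESC and Myc-ESC Suz12 lists.

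The MycER transgene is inserted elsewhere in the genome. Reads from its coding sequence, where they match the mouse gene, would align to exons 2 and 3 of Myc and cannot be told apart from reads of the gene itself. This touches the LIF-ESC Suz12 peak and the third Suz12 peak of Myc-ESCs, both in exon 2. It also touches the H3K4me3 peaks of both cultures where they lie over exons 2 and 3. The 2 larger Suz12 peaks of Myc-ESCs lay in exon 1 and intron 1, upstream of exon 2.

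**Figure D1:**
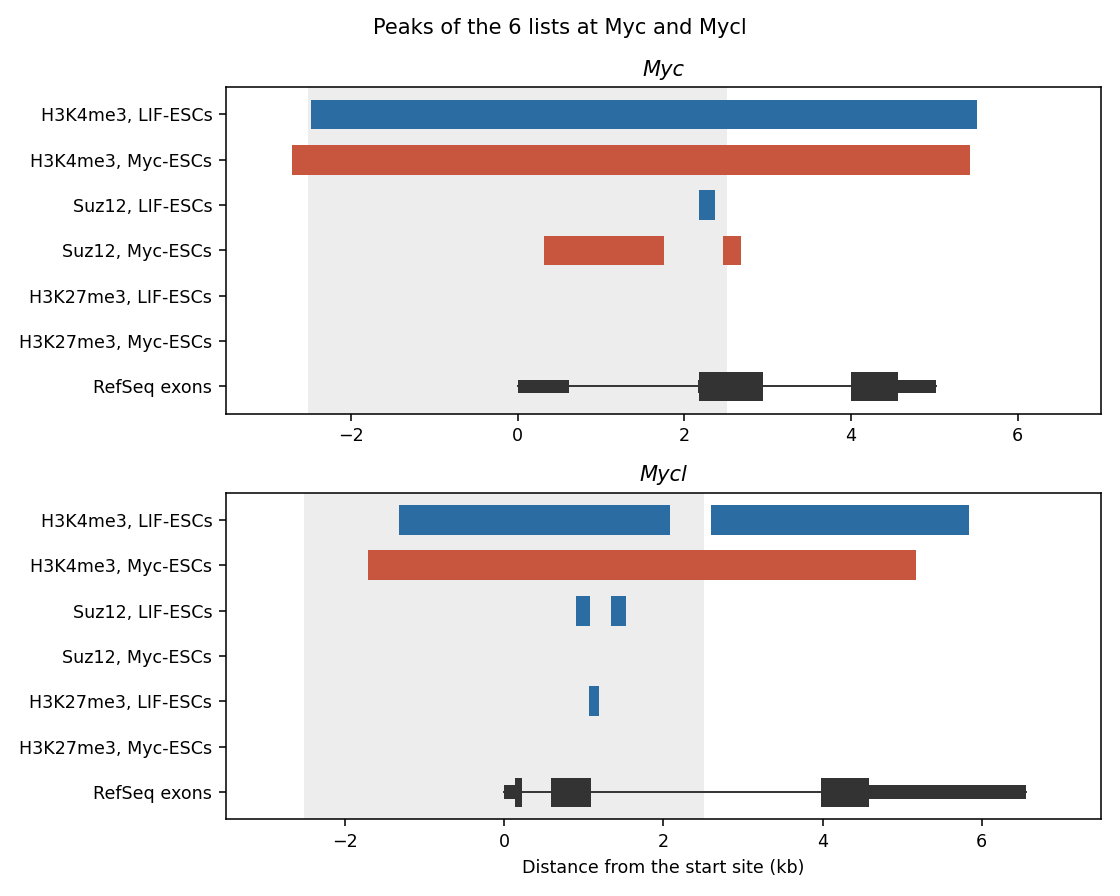
Peaks of the 6 lists (rows) at Myc (top) and Mycl (bottom) by distance from the start site in kb, with LIF-ESCs in blue, Myc-ESCs in red, the 2500 bp window on each side shaded and the exons below, coding parts taller. At Myc the Suz12 peaks cover 194 bp of the window in LIF-ESCs against 1467 bp in Myc-ESCs, and at Mycl the Suz12 and H3K27me3 peaks appear in LIF-ESCs only.

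Genes most like Myc in the bases covered in the main start window over the 6 lists, by Euclidean distance, were Gse1 (140 bp away), Epha4 (195 bp) and Gm15222 (197 bp). All 3 had H3K4me3 over the whole window in both cultures. Suz12 covered 189 bp of Gse1 in LIF-ESCs against 1329 bp in Myc-ESCs. Epha4 and Gm15222 had no Suz12 in LIF-ESCs and 1469 and 1493 bp in Myc-ESCs. These values entered the choice of the 3 genes, so their likeness to Myc is no separate result.

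Mycn, the paralogue with a prominent role in embryonic growth (gene ID 18109, chr12:12936093-12941836, minus strand), also lay wholly under 1 H3K4me3 peak in each culture, both at the score ceiling. The peak was 8096 bp long in LIF-ESCs against 8975 bp in Myc-ESCs, and the LIF-ESC peak lay wholly within the other. Within 10 kb on each side of the start, H3K4me3 covered 8096 and 11313 bp, because Myc-ESCs had a further peak upstream, whose score of 53.8 was close to the minimum. The difference of 3217 bp, equalled or exceeded by 1.63% of 17292 genes, rests on that peak, and without it the difference is 879 bp. The Suz12 peak nearest to Mycn was 1206706 bp away in LIF-ESCs against 1207025 bp in Myc-ESCs. A single LIF-ESC H3K27me3 peak of 154 bp (chr12:12945288-12945441), with a score of 56.1, lay 3452 bp upstream of the start, just outside the window. In Myc-ESCs the nearest H3K27me3 peak was 127123 bp away.

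Mycl (gene ID 16918, chr4:122995931-123002485, plus strand) encodes the family member with the weakest transforming activity. It was the member with both Polycomb signals, and only in LIF-ESCs. One Suz12 peak of 176 bp lay at +903 to +1078 in coding exon 2 with a score of 113, and another of 192 bp at +1338 to +1529 in intron 2 with a score of 65.7. The H3K27me3 peak of 129 bp lay at +1065 to +1193, across the end of exon 2, with a score of 63.6. The median score of these LIF-ESC lists was 90.4 for Suz12 and 63.7 for H3K27me3, so only the first of the 3 peaks stood above the middle of its list. The first Suz12 peak, most of the stretch printed above, was 71.6% GC with 15 CpG sites, and 97.1% of the LIF-ESC Suz12 peaks had a lower GC content. The second was 48.4% GC with 2 CpG sites.

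In Myc-ESCs no Suz12 peak came nearer to the Mycl start than 34003 bp and no H3K27me3 peak nearer than 33190 bp. Of the 828 genes with both Suz12 and H3K27me3 at the start in LIF-ESCs, 22 (2.66%) had neither in Myc-ESCs, which is 0.0840% of all genes. This direction was opposite to the lists as a whole, in which H3K27me3 and Suz12 peaks were more numerous in Myc-ESCs. All 3 peaks were short, and those with scores of 63.6 and 65.7 lay near the score minimum of 50. With a minimum score of 100 the H3K27me3 peak was lost and the first Suz12 peak kept, and with an overlap of at least 200 bp all 3 were lost.

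H3K4me3 at Mycl reached the score ceiling in both cultures. The peak at the start was 3407 bp long in LIF-ESCs, from -1325 to +2081, and 6891 bp in Myc-ESCs, from -1720 to +5170. Most of this difference came from how peaks were divided. LIF-ESCs had a second, separate peak of 3250 bp with a score of 190 at +2594 to +5843, and within 10 kb of the start H3K4me3 covered 6657 bp in LIF-ESCs against 6891 bp in Myc-ESCs. By its main start window, Mycl was most like Efs (220 bp away), Sox4 (269 bp) and H2bu2 (273 bp). All 3 had Suz12 in LIF-ESCs and none in Myc-ESCs, but these values also entered the choice of the genes. In LIF-ESCs, H3K27me3 covered 154 bp of H2bu2 and 0 bp of Efs and Sox4.

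**Figure D2:**
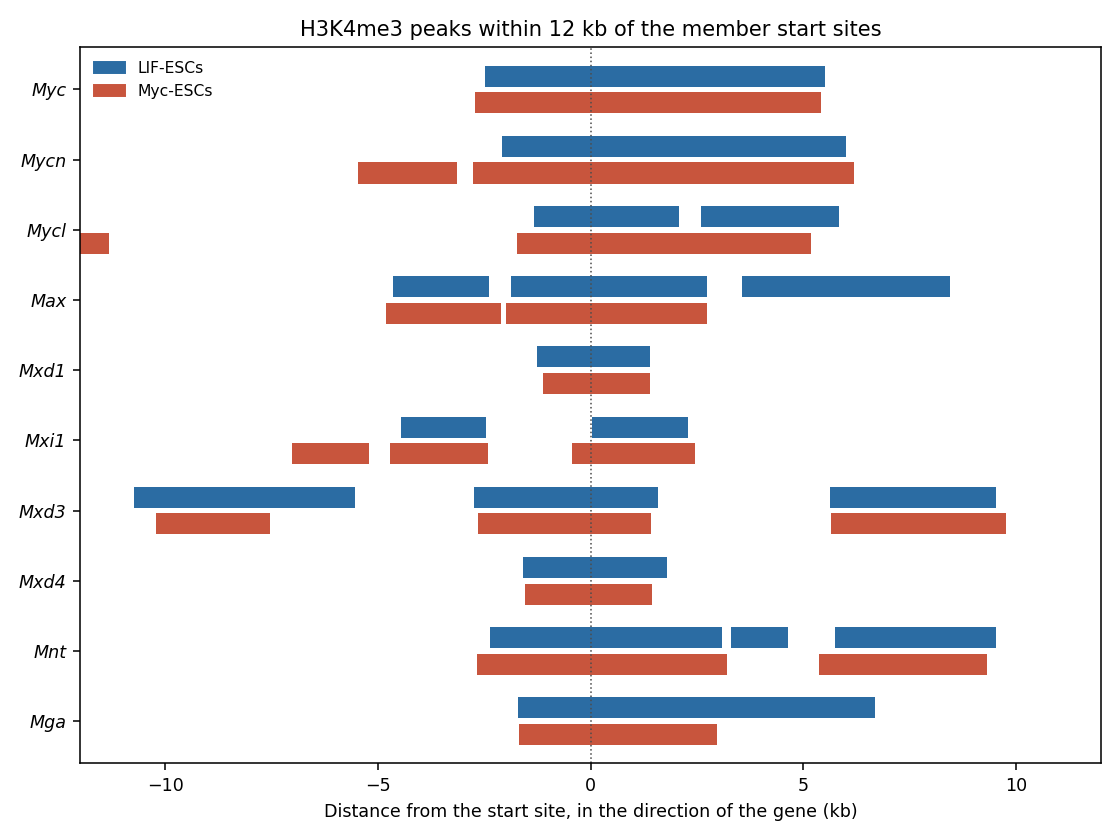
H3K4me3 peaks within 12 kb of the main start site of each member, by distance from the start in the direction of the gene (kb), with LIF-ESCs in blue and Myc-ESCs in red. The peaks at Mga and beyond the start of Max are shorter or absent in Myc-ESCs, and the gap between the LIF-ESC peaks of Mycl is bridged by 1 peak in Myc-ESCs. The upstream starts of Mxi1 lie outside the range drawn.

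Max, the partner shared by the other members (gene ID 17187, chr12:76937269-76962248, minus strand), had 2 H3K4me3 peaks at its start in each culture. The peak over the start was 4591 bp long in LIF-ESCs against 4726 bp in Myc-ESCs, at the score ceiling in both. The peak upstream of it was 2245 bp long with a score of 414 in LIF-ESCs and 2706 bp with a score of 173 in Myc-ESCs. The cultures differed within the gene. LIF-ESCs had a peak of 4904 bp in intron 1, at +3552 to +8455 with a score of 265, where Myc-ESCs had none. A peak in intron 2 was 2129 bp long with a score of 126 in LIF-ESCs and 1630 bp with a score of 55.2 in Myc-ESCs. Within 10 kb of the start, H3K4me3 covered 11740 bp in LIF-ESCs against 7432 bp in Myc-ESCs, and 2.91% of the genes with the mark had as large a loss or a larger one. No Suz12 or H3K27me3 peak came nearer than 139290 bp in either culture.

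The Mxd proteins are the antagonists of Myc, mostly expressed as cells stop dividing and differentiate. Mxd1 (gene ID 17119, chr6:86647044-86669159, minus strand) had the lowest summed H3K4me3 length at the start and the lowest top score of the members, each taken per gene. Its peak was 2655 bp long with a score of 392 in LIF-ESCs and 2524 bp with a score of 232 in Myc-ESCs, and 24.7% and 14.1% of genes with the mark had a shorter summed length. Mxd3, the member of the family expressed in dividing cells (gene ID 17121, chr13:55325170-55329731, minus strand), had a peak of 4335 bp with a score of 2200 in LIF-ESCs and of 4080 bp with a score of 1672 in Myc-ESCs. Mxd4 (gene ID 17122, chr5:34176580-34187710, minus strand) had a peak of 3398 bp with a score of 1341 in LIF-ESCs and of 2993 bp with a score of 1755 in Myc-ESCs. All 3 peaks were slightly shorter in Myc-ESCs, with differences of -131, -255 and -405 bp that lay between the 19.0th and the 29.9th percentile of all genes with the mark. None of these genes had a Polycomb peak nearer than 91.2 kb.

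Mxi1 (gene ID 17859, chr19:53310506-53373293, plus strand), also a Mxd antagonist, has 5 curated starts in 2 groups, the first at 53310506 and 53311445 and the second at 53329413, 53329695 and 53330408. At the first group, H3K4me3 came as 2 peaks of 6037 bp in all in LIF-ESCs and as 1 peak of 6612 bp in Myc-ESCs, whose score of 3153 was exceeded or equalled by 0.395% of its list. At the second group, 2 peaks summed to 4253 bp in LIF-ESCs and to 5179 bp in Myc-ESCs. The peak at these starts began at +36 of the main start (53329413) in LIF-ESCs and at -428 in Myc-ESCs. A peak over exons 4 and 5 measured 2678 bp with a score of 219 in LIF-ESCs and 3499 bp with a score of 468 in Myc-ESCs. Within 10 kb of the main start, coverage was 4253 and 6986 bp, a difference that 2.54% of genes with the mark equalled or exceeded. Of the Myc-ESC coverage, 1807 bp came from a peak in intron 1 with a score of 61.3 that LIF-ESCs lacked, and without it the values are 4253 and 5179 bp.

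Suz12 at Mxi1 was limited to the first group of starts. The LIF-ESC peak was 190 bp long with a score of 56.4 and the Myc-ESC peak 164 bp with a score of 75.3. They did not overlap, both lay in intron 1, and neither was 200 bp long or reached a score of 100. There was no H3K27me3. The genes most like Mxi1 by the main start window, in which it had H3K4me3 alone, were Adm2 (3.61 bp away), A430033K04Rik (5.00 bp) and Gpnmb (12.2 bp).

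Mnt, a widely expressed repressor that pairs with Max (gene ID 17428, chr11:74830924-74845725, plus strand), had H3K4me3 of 5460 bp at the start in LIF-ESCs against 5880 bp in Myc-ESCs, both at the score ceiling. A second broad peak from exon 2 to intron 4 was 3799 bp long with a score of 1879 in LIF-ESCs and 3964 bp with a score of 1292 in Myc-ESCs. A small LIF-ESC peak of 1344 bp in intron 1, with a score of 53.9, had no counterpart.

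Mga, the scaffold of the variant Polycomb complex that represses germline genes in ESCs (gene ID 29808, chr2:119897228-119969581, plus strand), had the largest difference in summed H3K4me3 length at the start. Its peak ran from -1702 to +6673 bp in LIF-ESCs, 8376 bp in all, and from -1689 to +2959 in Myc-ESCs, 4649 bp in all, and reached the score ceiling in both. The upstream edges thus nearly coincided, and the difference lay downstream, in introns 1 and 2 and exon 2. In LIF-ESCs 93.6% of genes with the mark had a shorter summed length, and in Myc-ESCs 73.5%. The difference of -3727 bp was undercut by 2.81% of genes. Summed length adds whole peaks and both peaks lie over the start at the score ceiling, so most alternatives could hardly change it. Both lengths were the same with the other windows, overlap, score limit, list lengths and the main start. With all RefSeq transcripts they were 11825 and 8127 bp.

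Over the 10 members, the median summed H3K4me3 length was 6148 bp in LIF-ESCs against 6386 bp in Myc-ESCs. With windows of 5000 bp this order turned, to 7396 and 6386 bp, and so did the median coverage within 10 kb of the main start, 8042 and 7209 bp. Over all 15958 genes with the mark in both, the summed medians at 2500 bp were 3549 and 3704 bp. The median difference was 280 bp for the members and 144 bp for all genes, whose quartiles were -233 and 480 bp. The summed length was higher in Myc-ESCs for 6 of 10 members (Myc, Mycn, Mycl, Max, Mxi1 and Mnt), close to the 61.1% of all genes. Within 5000 bp windows, or within 10 kb of the start, it was higher for 4 members (Myc, Mycn, Mycl and Mxi1), and Max and Mnt changed sides. Over the 17292 genes with the mark in both cultures within 10 kb, the median difference was 147 bp, so most were higher in Myc-ESCs. The members thus differed from one another and shared no common direction.

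**Figure D3:**
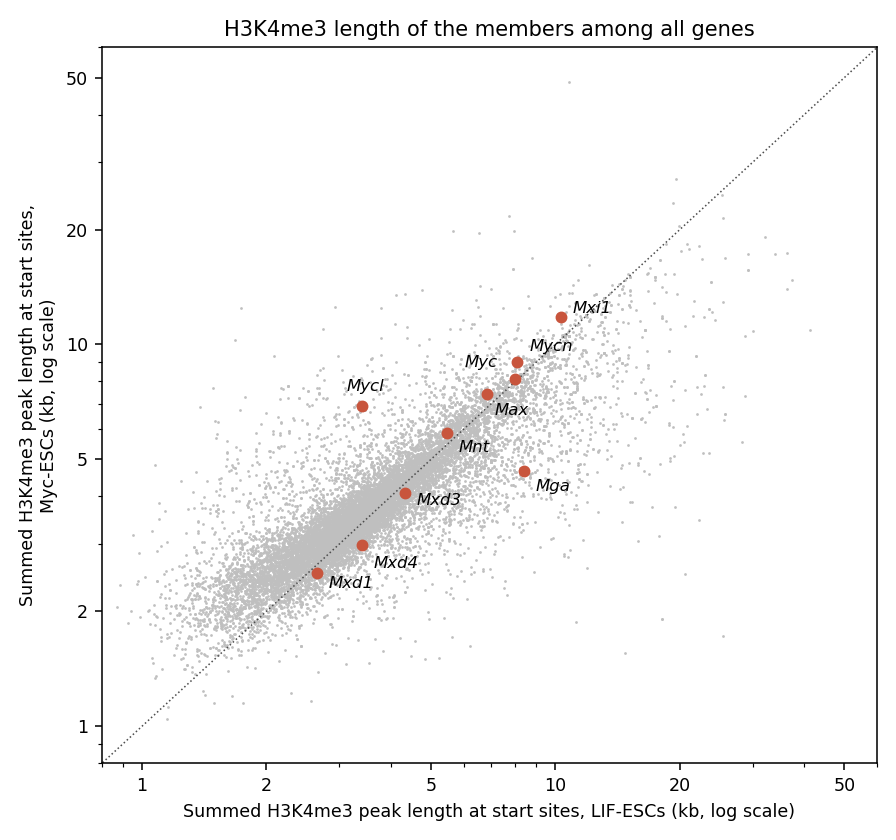
Summed length of the H3K4me3 peaks at the start sites of each gene in LIF-ESCs (horizontal axis) and Myc-ESCs (vertical axis), in kb on log scales, for the 15958 genes with the mark in both cultures (grey) and the 10 members (red), with the line of equal length dotted. Mga lies below the line at 8376 and 4649 bp, Mycl above it at 3407 and 6891 bp, and the other members close to it.

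The region downstream of Myc differed more than Myc itself. Pvt1, a long noncoding RNA gene whose locus contains enhancers of Myc (gene ID 19296, chr15:62037986-62260215, plus strand), starts 52.6 kb from the Myc start. In LIF-ESCs 16 H3K4me3 peaks lay over Pvt1 and covered 52993 bp of it, and 10 of them had a score of at least 100. In Myc-ESCs 3 peaks covered 11652 bp, and 2 had a score of at least 100. The peak at the Pvt1 start was 10385 bp long in LIF-ESCs, with a score of 3099, and 6481 bp in Myc-ESCs, at the ceiling of 3100. A surplus of 13 or more LIF-ESC peaks over the body was seen in 4 of 26180 genes (0.0153%), which were Kat6b, Msi2, Pitpnc1 and Pvt1. These 4 genes are long, from 173 kb for Kat6b to 379 kb for Msi2, and a long gene can hold more peaks.

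Between Myc and Pvt1, LIF-ESCs had 3 further H3K4me3 peaks, beginning 18150, 23408 and 46863 bp from the Myc start with scores of 83.9, 128 and 432, and Myc-ESCs had none. Within 100 kb on each side of the Myc start, H3K4me3 covered 41848 bp in LIF-ESCs against 14609 bp in Myc-ESCs. Of 23755 genes with H3K4me3 in such a span in both cultures, 90 (0.379%) lost as many bases or more. Genes that lie close together share peaks in such spans and are not independent. The median over these genes was 13635 bp in LIF-ESCs against 13203 bp in Myc-ESCs. The median of the differences per gene, Myc-ESCs minus LIF-ESCs, was however 336 bp, with quartiles of -2368 and 1925 bp. Neither Suz12 nor H3K27me3 had a peak over Pvt1 in either culture. The depth of the libraries is unknown, and its part in the number of weak LIF-ESC peaks was not tested.

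**Figure D4:**
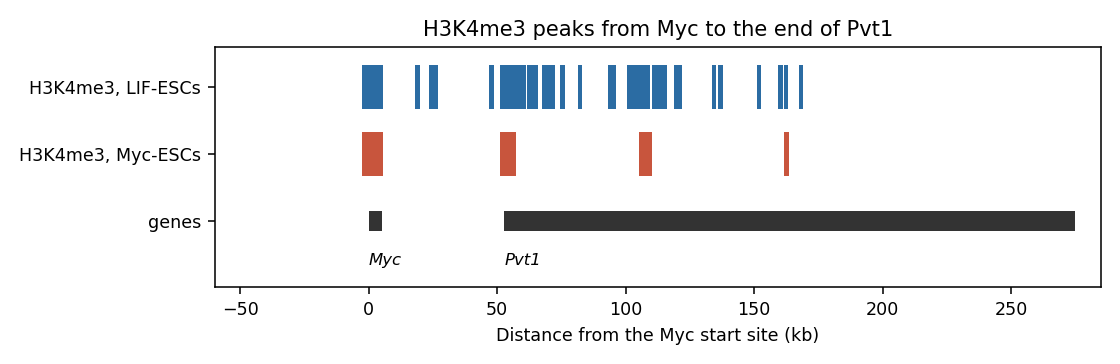
H3K4me3 peaks of LIF-ESCs (blue) and Myc-ESCs (red) by distance from the Myc start site in kb, with the spans of Myc and Pvt1 below. Over Pvt1, 16 peaks lie in LIF-ESCs against 3 in Myc-ESCs, while the peak over Myc is nearly the same in both.

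For the other members, H3K4me3 within 100 kb of the start was higher in Myc-ESCs at Mycn (16381 and 18092 bp) and Mycl (15579 and 16607 bp) and lower at the 7 others. Of these, Max had 26241 bp in LIF-ESCs against 14679 bp in Myc-ESCs, and 4.62% of genes lost as much or more. Over the 10 members the median was 24861 and 17350 bp, and 2 of them were higher in Myc-ESCs. Over the 23755 genes the median difference was 336 bp, so most of those genes were higher in Myc-ESCs.

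The wider network was examined through 35 genes, among them the Mlx branch, co-activators, co-repressors, regulators of Myc turnover and the partners of Mga in its Polycomb complex. All 35 had H3K4me3 at the start in both cultures. Suz12 was found at 3 of them in LIF-ESCs against 5 in Myc-ESCs, and H3K27me3 at 2 and 4. The shares of all genes given above were 12.1% and 14.6% for Suz12 and 3.82% and 10.7% for H3K27me3. Mlxipl, the carbohydrate-sensing partner of Mlx, had Suz12 over 1994 bp of its window in LIF-ESCs against 1227 bp in Myc-ESCs. It had H3K27me3 over 127 bp in Myc-ESCs only, with a score of 52.4, close to the minimum of 50. Bin1, which binds Myc and was first described as a tumour suppressor, had Suz12 over 1156 and 520 bp and no H3K27me3. Yaf2, a subunit of variant Polycomb complexes, had Suz12 over 670 bp in LIF-ESCs against 1582 bp in Myc-ESCs, and 646 bp of H3K27me3 in Myc-ESCs only.

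E2f6, the DNA-binding partner of Mga in its complex, had H3K27me3 over 513 bp in LIF-ESCs against 499 bp in Myc-ESCs. It had a Suz12 peak of 186 bp in Myc-ESCs only, with a score of 62.0. Pim1, a kinase that acts with Myc, had a Suz12 peak of 188 bp in Myc-ESCs only, with a score of 61.5. Hdac2, a histone deacetylase of the Sin3 repressor, had H3K27me3 over 146 and 342 bp and no Suz12. The 5 co-activators and the 4 E-box competitors and partners had neither mark in either culture.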

How the data were processed

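ChIP-seq of H3K4me3, H3K27me3 and Suz12 in LIF-ESCs and Myc-ESCs was read from the 6 peak lists that the authors deposited. Per the labels and the methods of the study, reads were aligned to GRCm38 with Bowtie2 2.2.3 and peaks called with MACS 1.4.2 at default parameters. Each list gives peak positions and, as the authors deposited it, a score of 10 times the negative log10 p-value from MACS. How the 2 libraries behind each list were combined is not given in the sources used here. The lists hold no counts, so depth is unknown and no interval could be computed.

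Starts and bodies came from 45756 curated RefSeq transcripts of 26180 genes. A peak counted at an overlap of at least 1 bp with 2500 bp on either side of a start, or with the gene body. Summed length adds whole peaks at the start, and coverage counts bases inside a window. Exons follow the RefSeq Select transcript, and coordinates count from 1. Percentages over all genes describe these lists and are no test. The code was checked on simulated intervals.

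All 10 members were named, with the 3 genes nearest to each member that had a Polycomb peak, the wider-list genes with such a peak, and Pvt1. Kat6b, Msi2 and Pitpnc1 were named after their values were seen. The members and lists were chosen with earlier results of these data known. The alternatives tried were lists of equal length, a minimum score of 100, windows of 1000 and 5000 bp, an overlap of at least 200 bp, all RefSeq transcripts, and the main start alone. The main start is the one with the largest number of curated transcripts, and the most upstream one on a tie. At Mxi1 the starts 53329413 and 53329695 tied with 2 of 7 transcripts each, and the first was taken. The spans of 10 kb, the comparison of 100 kb spans over all genes, the base composition of peaks and promoters, and the comparison of the direction of H3K4me3 length under each alternative, were added after seeing the data. Python 3.11.15, numpy 2.4.6, pysam 0.24.0 and matplotlib 3.10.9 were used. Gene expression was not analysed here.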

Additional observations from a re-analysis of the deposited data

How the results depend on the processing

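Of 120 alternatives over 21 results, 96 stayed within 1.5 times the main value and 24 moved further, all of them counts of members with Suz12 or H3K27me3, which were 0 to 3 to begin with. H3K4me3 counts and median lengths stayed within that limit, as did every result with lists of equal length. With 5000 bp windows, however, the median H3K4me3 lengths went from 6148 and 6386 bp to 7396 and 6386 bp, which turned the order of the cultures, and the members longer in Myc-ESCs went from 6 to 4. H3K27me3 at the start in LIF-ESCs, in all and in that culture only, fell from 1 to 0 with a 200 bp overlap, a score of at least 100 or a 1000 bp window, and rose to 2 (Mycn and Mycl) with 5000 bp. Over the body it fell to 0 with the 200 bp overlap and the score limit. Suz12 in LIF-ESCs fell from 3 to 0 with the 200 bp overlap, and to 1 (Mycl) with the score limit and with 1000 bp. In Myc-ESCs it fell from 2 to 1 (Myc) with the main start, the 200 bp overlap and the score limit. Over the body the counts fell to 0 and 1 with the 200 bp overlap and to 1 and 1 with the score limit. Suz12 in LIF-ESCs only fell from 1 to 0 with the 200 bp overlap. In Myc-ESCs only it rose from 0 to 1 (Myc) with the 200 bp overlap and the score limit, and to 2 (Myc and Mxi1) with 1000 bp. By construction, the overlap and the score limit remove short and weak peaks, and the windows and the main start act on position. The depth of the lists is unknown, so a missing peak does not show that the mark was absent. No paired analysis was possible because the lists do not separate the replicates.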
